A study of Mus musculus with 9 samples.

Results

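The anaphase promoting complex is a ubiquitin ligase of dividing cells, and 10 genes of the complex and its direct partners were followed here: the coactivators Cdc20 and Fzr1, the ubiquitin-conjugating enzymes Ube2c and Ube2s, the subunits Anapc1, Anapc5, Cdc16 and Cdc23, the securin gene Pttg1 and the separase gene Espl1. They were chosen by name, with earlier results of these data known. Every probe set that the platform annotation gives exactly 1 of these symbols was taken. This found 21 probe sets of 9 genes, among 20380 probe sets with 1 symbol and 22626 probe sets tested in all. Espl1 had no such probe set and is not analysed here. Anapc5 had 6 probe sets, Cdc20 and Pttg1 had 3 each, Ube2s, Anapc1 and Cdc23 had 2 each, and Fzr1, Ube2c and Cdc16 had 1 each.

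Total RNA of N1E-115 cells, a mouse neuroblastoma line, was hybridised to 9 one-colour arrays. Of these, 3 arrays came from cells that overexpress mouse Tcof1, 3 from cells with Tcof1 knockdown and 3 from wildtype cells, lettered A, B and C in each group. Tcof1 encodes treacle, a nucleolar protein of ribosomal RNA synthesis. The construct, the time after transfection, the number of clones and whether a letter marks a separate culture are not stated in the labels. The p-values therefore cover array-to-array spread alone, and this spread may be technical.

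The complex attaches ubiquitin chains to proteins that must be destroyed for a cell to separate its chromosomes and leave mitosis. CDC20 activates it at metaphase, once the spindle checkpoint has been satisfied, and FZR1, also called CDH1, activates it from late mitosis through the next gap phase and in differentiated cells, neurons included. UBE2C places the first ubiquitins and UBE2S lengthens the chain, and the destruction of securin frees separase to cut the cohesin that holds sister chromatids together.

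Values below are deposited intensities, and differences are log2 fold changes of intensity plus 16, with a standard error (SE) and a 95% confidence interval from one limma fit over the 9 arrays. Suffixes _s_at and _x_at mark, by the naming custom of this array type, probe sets that may also bind related transcripts. A probe set was called where its p, adjusted by the method of Benjamini and Hochberg over all 22626 probe sets, was under 0.05. Both contrasts against wildtype use the same 3 wildtype arrays, so they are not independent of each other. In RNA from whole cultures, fewer cells of a kind and less RNA per cell cannot be told apart.

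The array medians ran from 164.1 to 185.95. Tcof1 itself read 386, 232 and 264 in the overexpressing cells, 135, 112 and 133 in the knockdown cells and 143, 156 and 149.8 in the wildtype cells on probe set 1423600_a_at. It was higher in overexpressing cells by 0.87 ± 0.21 (SE, adjusted p = 0.0241) over wildtype, and differed by -0.22 ± 0.21 (adjusted p = 0.744) between knockdown and wildtype. The other probe sets of Tcof1 gave -0.40 (1423601_s_at) and 0.06 (1424643_at) for knockdown over wildtype, with adjusted p of 0.51 and 0.934. No Tcof1 probe set was therefore called lower in the cells labelled knockdown than in wildtype. For overexpressing over wildtype the same probe sets gave 0.63 (adjusted p = 0.0786) and 0.39 (adjusted p = 0.187), uncalled. The call of 1423600_a_at over wildtype was kept in 13 of 17 alternatives. On that probe set every knockdown array lay below every wildtype array. Overexpressing over knockdown was called on 1423600_a_at at 1.09 (adjusted p = 0.0116) and on 1423601_s_at at 1.025 (adjusted p = 0.0137), each in 16 of 17 alternatives. It was uncalled on 1424643_at, at 0.33 (adjusted p = 0.267). All 12 measured markers of neuroblastoma and sympathoadrenal cells were above the median brightness of 175.2, with Stmn2 the brightest. Their summed intensity was 23166.5 to 25978.7 in overexpressing, 27403.0 to 28834.9 in knockdown and 27076.4 to 29584.4 in wildtype arrays, and in overexpressing over wildtype cells 2 of them rose and 3 fell.

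Among the 21 probe sets, 4 were called higher and 1 was called lower in overexpressing than in wildtype cells. Over all probe sets, 4.52% were called higher and 5.07% lower in that comparison. An unadjusted p under 0.05 was found in 9 of the 21, against 23.0% of all probe sets. The 5 calls belonged to Cdc20 (2 probe sets), Ube2c and Ube2s, which rose, and Fzr1, which fell. Groups did not overlap, with every overexpressing array above every wildtype array, in 8 member probe sets, against 13.3% of all probe sets, and lay wholly below in 2, against 14.4% of all. The median member difference was 0.33 on the log2 scale, and that of all probe sets was -0.02. Some genes enter these counts with several probe sets. With the brightest probe set of each of the 9 genes, 4 lay wholly above wildtype and 2 wholly below, with a median of 0.19. Because the members were chosen with earlier results known, member counts were not tested against the shares of all probe sets in any comparison.

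No member probe set was called in knockdown over wildtype cells by limma, where 0.00442% of all probe sets were called higher and 0.00884% lower. At an unadjusted p under 0.05 there were 8 of the 21, against 10.9% of all probe sets (2462 of 22626). Array groups lay wholly apart with knockdown higher in 6, against 8.63% of all, and with knockdown lower in 3, against 7.01% of all. In overexpressing over knockdown cells 2 member probe sets, of Cdc20 and Anapc1, were called higher and 0 lower, beside 3.43% and 4.14% of all probe sets. The arrays of the overexpressing cells lay wholly above those of the knockdown cells in 4 member probe sets, against 12.9% of all. They lay wholly below in 1, against 15.2% of all. In that comparison 5 of the 21 had an unadjusted p under 0.05, against 22.5% of all probe sets.

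**Figure D1:**
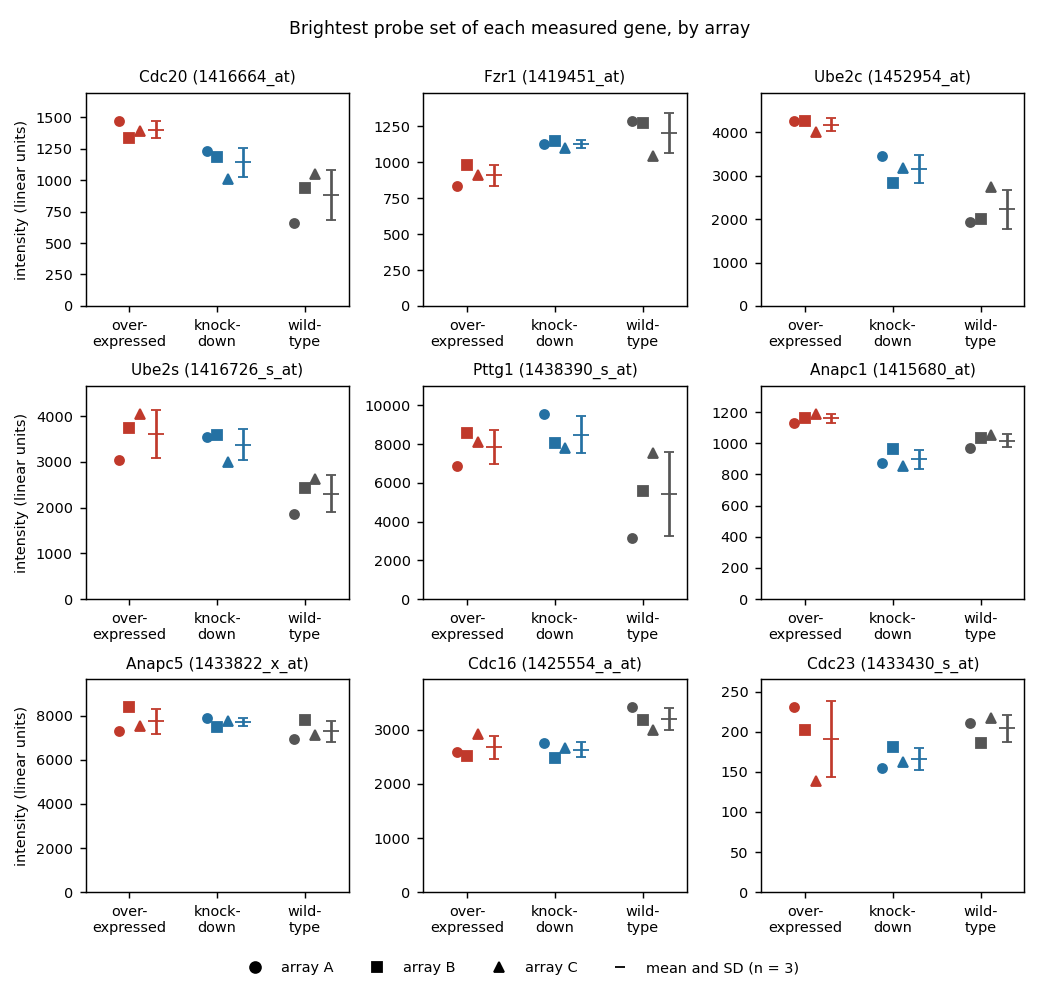
Intensity on a linear axis from 0 of the brightest probe set of each of the 9 measured genes, with 1 point per array and the group mean with its SD beside the points (n = 3), overexpressing cells at the left, then knockdown and wildtype cells. The 3 overexpressing arrays of Ube2c sit between 4011 and 4269, above all knockdown and wildtype arrays, while those of Fzr1 sit between 835 and 980.2, below both other groups.

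The called differences of the coactivators had opposite directions in cells overexpressing Tcof1 over wildtype. Cdc20, the mitotic one, was higher, though another bright probe set of it, 1439377_x_at, was uncalled (limma adjusted p = 0.244). Fzr1, the one of late mitosis and the gap phase, was lower, a call kept in 7 of 17 alternatives. The starts of both coactivators and of the 2 conjugating enzymes are printed because these are the 4 genes with a call against wildtype. Each window is RefSeq sequence of build GRCm38.p6 on the gene's own strand, 250 bases before to 50 bases after the annotated start. Capitals mark matches on either strand to the cell cycle genes homology region (the CHR element, searched as TTTGAA and TTCGAA) and to the CCAAT box (CCAAT), elements known from promoters of late cell cycle genes. The windows are chr4:118437294-118437593 on the minus strand for Cdc20, chr10:81378321-81378620 on the minus strand for Fzr1, chr2:164769679-164769978 on the plus strand for Ube2c and chr7:4812291-4812590 on the minus strand for Ube2s.
Cdc20: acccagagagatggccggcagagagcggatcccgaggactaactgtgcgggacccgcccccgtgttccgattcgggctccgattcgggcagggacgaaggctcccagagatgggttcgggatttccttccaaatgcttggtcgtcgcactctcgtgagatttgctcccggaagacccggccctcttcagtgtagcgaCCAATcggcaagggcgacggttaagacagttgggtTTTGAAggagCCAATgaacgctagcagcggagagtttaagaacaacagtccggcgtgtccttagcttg
Fzr1: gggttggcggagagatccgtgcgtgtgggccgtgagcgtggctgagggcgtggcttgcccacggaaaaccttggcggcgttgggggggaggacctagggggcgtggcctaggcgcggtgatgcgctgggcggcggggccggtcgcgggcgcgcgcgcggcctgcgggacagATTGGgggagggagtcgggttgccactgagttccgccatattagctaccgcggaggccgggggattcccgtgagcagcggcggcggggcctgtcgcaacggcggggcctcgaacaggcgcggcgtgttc
Ube2c: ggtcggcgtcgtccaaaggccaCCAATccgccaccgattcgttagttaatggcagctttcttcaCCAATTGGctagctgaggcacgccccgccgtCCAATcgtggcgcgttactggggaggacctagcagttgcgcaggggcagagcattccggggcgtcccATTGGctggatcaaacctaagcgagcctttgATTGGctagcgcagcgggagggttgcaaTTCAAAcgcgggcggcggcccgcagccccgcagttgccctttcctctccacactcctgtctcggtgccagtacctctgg
Ube2s: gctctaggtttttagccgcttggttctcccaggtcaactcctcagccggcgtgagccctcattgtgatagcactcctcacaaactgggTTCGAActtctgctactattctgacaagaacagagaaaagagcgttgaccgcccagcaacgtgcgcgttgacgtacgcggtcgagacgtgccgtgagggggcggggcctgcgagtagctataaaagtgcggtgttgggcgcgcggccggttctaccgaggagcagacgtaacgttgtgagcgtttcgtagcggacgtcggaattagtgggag

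A CHR match lay at -18 to -13 from the start in Cdc20, at -29 to -24 on the reverse strand in Ube2c and at -162 to -157 in Ube2s, while the window of Fzr1 held none. Cdc20 also held 2 CCAAT matches, Ube2c 6 and Fzr1 1, and Ube2s held 0. Of the genes without a call against wildtype, Anapc5 had 2 CCAAT matches, Anapc1, Cdc16 and Pttg1 had neither motif, and Espl1, which was not measured, had 1 of each, while the window of Cdc23 was not used here. Of 32851 RefSeq windows of this length, 19.2% hold a CHR match, 37.4% a CCAAT match and 7.5% both. The E2F motif (TTTCCCGC, TTTGGCGC, TTTCGCGC and TTTGCCGC, both strands), present in 2.3% of all windows, was found in none of these. A match describes the letters of the window and is not evidence of a bound site.

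On its brightest probe set, 1416664_at, Cdc20 read 1472, 1339 and 1387 in overexpressing cells, 1233, 1181 and 1011 in knockdown cells and 659.8, 940.2 and 1047 in wildtype cells. Every overexpressing array was above every knockdown and wildtype array, and 1 knockdown array overlapped the wildtype range. The difference of overexpressing over wildtype was 0.68 ± 0.15 (SE, interval 0.34 to 1.02, limma adjusted p = 0.0189), and the call was lost without overexpressing array A (adjusted p = 0.0697) or C (0.0517) and without the mean-variance trend (0.0618). For knockdown over wildtype the value was 0.39 ± 0.15 (interval 0.05 to 0.72, adjusted p = 0.394), and for overexpressing over knockdown it was 0.29 ± 0.15 (interval -0.04 to 0.63, adjusted p = 0.29).

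The other probe sets of Cdc20 differed from this one in brightness and in call. On 1439377_x_at the intensities were 1319, 1220.2 and 938 in overexpressing, 1294, 988 and 882 in knockdown and 619, 855 and 1113 in wildtype cells, and all groups overlapped. Its difference of overexpressing over wildtype was 0.45 ± 0.21 (SE, interval -0.02 to 0.91, adjusted p = 0.244), so the 2 bright probe sets of Cdc20 had the same direction and different calls. The remaining one, 1439394_x_at, was dim, with 51.8, 31.1 and 53.9 in overexpressing, 23.4, 13.5 and 13.3 in knockdown and 10.7, 12.1 and 9.9 in wildtype cells. It lay at the 15.6 percentile of brightness, and no detection call shows whether it was above background. There every overexpressing array was above every other array, by 1.17 ± 0.23 (adjusted p = 0.01) over wildtype and by 0.90 ± 0.23 (adjusted p = 0.0388) over knockdown. The size of these dim values depends on the number added before the logarithm, and the call against knockdown was kept in 8 of 16 alternatives. It was lost with an added value of 1 (adjusted p = 0.0754), with the array letter as a replicate block (adjusted p = 0.0523) and without any 1 of overexpressing arrays A and C, knockdown arrays B and C and wildtype arrays B and C.

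Fzr1 was the only member gene called lower. Its probe set 1419451_at read 835, 980.2 and 914 in overexpressing cells, 1129.9, 1151 and 1097 in knockdown cells and 1289, 1275 and 1045 in wildtype cells. The overexpressing arrays lay below all others, and the knockdown and wildtype arrays overlapped. The value was -0.39 ± 0.11 (SE, interval -0.63 to -0.16, adjusted p = 0.0391) for overexpressing over wildtype, -0.09 ± 0.11 (interval -0.32 to 0.14, adjusted p = 0.813) for knockdown over wildtype and -0.31 ± 0.11 (interval -0.54 to -0.07, adjusted p = 0.108) for overexpressing over knockdown. The call held in 7 of 17 alternative settings and ended when any single array other than wildtype C was left out, with adjusted p of 0.0518 to 0.146 where it was lost. It also ended with every array scaled to a common median (adjusted p = 0.0575) and without the mean-variance trend.

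Both conjugating enzymes were higher in overexpressing cells. Ube2c, which starts the ubiquitin chain, read 4263, 4269 and 4011 in overexpressing cells, 3462, 2829 and 3175 in knockdown cells and 1930.0, 1994 and 2749 in wildtype cells on 1452954_at. The 3 groups did not overlap in any pair, in the order overexpressing, knockdown, wildtype. The difference of overexpressing over wildtype was 0.92 ± 0.13 (SE, interval 0.64 to 1.21, adjusted p = 0.00206) and was called under all 17 alternatives, with adjusted p of 0.000333 to 0.0159. For knockdown over wildtype the value was 0.52 ± 0.13 (interval 0.23 to 0.80, adjusted p = 0.21), and without wildtype array C, the highest of the 3, it was 0.68 and called (adjusted p = 0.0345). For overexpressing over knockdown the value was 0.41 ± 0.13 (interval 0.12 to 0.70, adjusted p = 0.087), called without wildtype array C (adjusted p = 0.0229).

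Ube2s, which extends the chain, read 3037, 3745 and 4051 in overexpressing cells, 3554, 3589.8 and 2997 in knockdown cells and 1859, 2439 and 2625 in wildtype cells on 1416726_s_at. Both other groups lay wholly above wildtype, and they overlapped each other. The difference was 0.65 ± 0.15 (SE, interval 0.33 to 0.97, adjusted p = 0.019) for overexpressing over wildtype, and the call was lost without overexpressing array B (adjusted p = 0.0677) or C (0.0692) or wildtype array A (0.0545) and without the mean-variance trend (0.0671). It was 0.56 ± 0.15 (interval 0.24 to 0.88, adjusted p = 0.223) for knockdown over wildtype and 0.09 ± 0.15 (interval -0.23 to 0.41, adjusted p = 0.778) for overexpressing over knockdown. The dim second probe set, 1430962_at, read 43.1, 42.8 and 27.4 in overexpressing, 13.4, 6.0 and 45.4 in knockdown and 11.1, 52.0 and 19.1 in wildtype cells, with overlap throughout and no call.

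**Figure D2:**
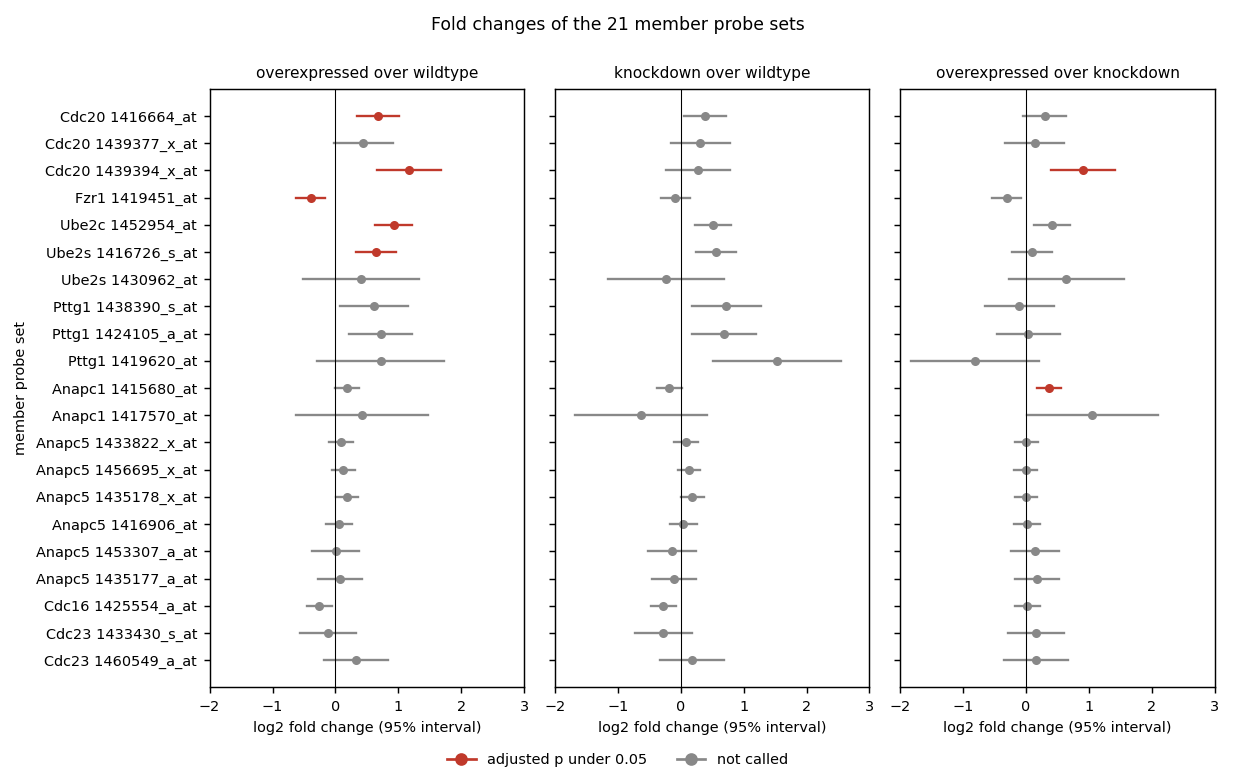
Log2 fold change with its 95% confidence interval for all 21 member probe sets in the 3 comparisons, red where the adjusted p was under 0.05. In overexpressing over wildtype cells Ube2c sits at 0.92 and Fzr1 at -0.39, while the 6 probe sets of Anapc5 lie between 0.001 and 0.19.

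Pttg1 encodes securin, the inhibitor of separase that the complex destroys at anaphase. Its brightest probe set, 1438390_s_at, read 6883, 8575 and 8131 in overexpressing cells, 9562, 8074 and 7804 in knockdown cells and 3154, 5603 and 7518 in wildtype cells. The wildtype arrays differed among themselves more than the other groups did, with an SD of 2188 against 877 in overexpressing and 947 in knockdown cells, and wildtype C overlapped the overexpressing arrays. The difference of overexpressing over wildtype was 0.62 ± 0.25 (SE, interval 0.07 to 1.16, adjusted p = 0.159), and that of knockdown over wildtype was 0.72 ± 0.25 (interval 0.18 to 1.27, adjusted p = 0.329). Overexpressing over knockdown gave -0.11 ± 0.25 (interval -0.65 to 0.44, adjusted p = 0.846).

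The second probe set of Pttg1, 1424105_a_at, had 1516, 1585 and 1463 in overexpressing cells, 1511, 1257 and 1725 in knockdown cells and 592, 994 and 1301 in wildtype cells. All overexpressing arrays were above all wildtype arrays, and 1 knockdown array was below the highest wildtype array. The differences were 0.72 ± 0.23 (SE, adjusted p = 0.0741) for overexpressing over wildtype and 0.69 ± 0.23 (adjusted p = 0.314) for knockdown over wildtype. Neither bright probe set of Pttg1 was called, but without wildtype array C both were called in overexpressing over wildtype cells, at 0.89 (adjusted p = 0.0237) on 1438390_s_at and 0.97 (adjusted p = 0.0127) on 1424105_a_at. Probe set 1424105_a_at was also called with the filter on dim probe sets (adjusted p = 0.0349) and with array weights (adjusted p = 0.0486). Without wildtype array A, the lowest, the same differences were 0.27 and 0.41, uncalled. The dim probe set 1419620_at, read 27.1, 109 and 62.8 in overexpressing, 156, 167 and 57.5 in knockdown and 20.1, 50.5 and 23.9 in wildtype cells. Its knockdown arrays lay wholly above wildtype, by 1.53 ± 0.46 (interval 0.52 to 2.55, adjusted p = 0.278).

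Of the 11 probe sets of the 4 subunits, 1 was called, in overexpressing over knockdown cells. Anapc1, the largest scaffold subunit, read 1131, 1164 and 1189 in overexpressing cells, 877, 965 and 851 in knockdown cells and 968, 1036 and 1051 in wildtype cells on 1415680_at. The groups did not overlap, with overexpressing the highest, wildtype between and knockdown the lowest. Overexpressing over knockdown was called at 0.37 ± 0.09 (SE, interval 0.18 to 0.56, adjusted p = 0.0286), while neither group was called against wildtype, at 0.19 ± 0.09 (adjusted p = 0.228) and -0.18 ± 0.09 (adjusted p = 0.491) for overexpressing and knockdown. The call against knockdown was kept in 10 of 17 alternatives and lost without any 1 of the overexpressing arrays, knockdown array A or C, or wildtype array B, and without the trend. The dimmer 1417570_at read 155, 148 and 98.0 in overexpressing, 16.8, 136 and 55.2 in knockdown and 80.1, 136 and 74.5 in wildtype cells, with no call.

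Anapc5, a scaffold subunit of the platform on which the others sit, was measured by 6 probe sets and called by none. Their differences ran from 0.001 to 0.19 for overexpressing over wildtype (adjusted p from 0.194 to 0.998), from -0.14 to 0.18 for knockdown over wildtype (adjusted p from 0.441 to 0.92) and from -0.004 to 0.18 for overexpressing over knockdown (adjusted p from 0.562 to 0.996). The brightest, 1433822_x_at, read 7316, 8392 and 7521 in overexpressing, 7872, 7498 and 7753 in knockdown and 6921, 7824 and 7127 in wildtype cells. The groups overlapped, and the interval of overexpressing over wildtype, -0.10 to 0.28, bounds the difference that these arrays leave possible on that probe set. On 1435178_x_at both groups lay wholly above wildtype, at 4789.9, 4683 and 5444 in overexpressing, 5046, 5039 and 4789.6 in knockdown and 4355, 4434 and 4293 in wildtype cells. The difference there was 0.19 ± 0.08 (SE, adjusted p = 0.194) for overexpressing over wildtype and 0.18 ± 0.08 (adjusted p = 0.441) for knockdown over wildtype.

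Cdc16 and Cdc23 encode tetratricopeptide repeat subunits of the complex. Cdc16 read 2595, 2513 and 2914 in overexpressing cells, 2753, 2475 and 2665 in knockdown cells and 3420.0, 3175 and 2999 in wildtype cells on 1425554_a_at. Both groups lay wholly below wildtype, with differences of -0.26 ± 0.09 (SE, interval -0.45 to -0.06, adjusted p = 0.101) for overexpressing and -0.28 ± 0.09 (interval -0.47 to -0.08, adjusted p = 0.303) for knockdown, and neither was called. They overlapped each other at 0.02 ± 0.09 (interval -0.17 to 0.22, adjusted p = 0.922).

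Cdc23 read near the median brightness of the array on both probe sets, which took opposite signs against wildtype. On 1433430_s_at it read 231, 202 and 139 in overexpressing, 155, 182 and 162 in knockdown and 211, 186 and 217 in wildtype cells, and on 1460549_a_at it read 195, 200.1 and 122 in overexpressing, 154, 132 and 165 in knockdown and 129, 113 and 153 in wildtype cells. Overexpressing over wildtype gave -0.12 ± 0.20 (SE, adjusted p = 0.818) on the first and 0.33 ± 0.23 (adjusted p = 0.461) on the second. The direction of Cdc23 was therefore not settled by these arrays.

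Wildtype array A was the lowest of the 3 wildtype arrays in 12 of the 21 member probe sets, array B in 3 and array C in 6. Relative to the wildtype mean, the median over the member probe sets was 0.18, 0.53 and 0.16 in the overexpressing arrays, 0.11, 0.13 and 0.14 in the knockdown arrays and -0.09, 0.06 and 0.04 in the wildtype arrays, on the log2 scale. These are levels of single arrays and carry no test.

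**Figure D3:**
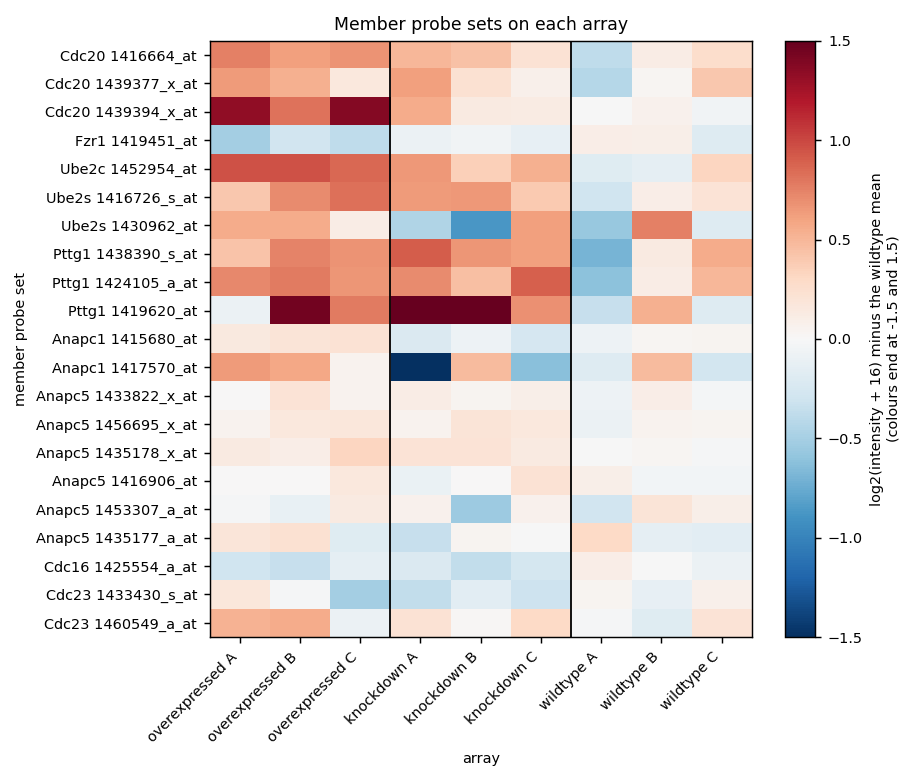
Log2 intensity minus the wildtype mean for each member probe set (down the page) and each array (across, overexpressing, knockdown, then wildtype), on a colour scale centred at 0. On the brightest probe set of each gene all 3 overexpressing arrays are above the wildtype mean in Cdc20, Ube2c, Ube2s, Pttg1, Anapc1 and Anapc5. The smallest of these values is 0.007, in overexpressing array A of Anapc5. All 3 are below the wildtype mean in Fzr1 and Cdc16, and those of Cdc23 lie on both sides. Wildtype array A is below the wildtype mean on all 3 probe sets of Pttg1.

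Genes that regulate the complex or are destroyed by it were taken from lists chosen with results of these data known. The brightest probe set was taken for each gene. Of all probe sets, 4.52% were called higher and 5.07% lower in overexpressing over wildtype cells. The counts of the lists were not tested against these shares. Among 9 measured other subunits, 1 rose in overexpressing over wildtype cells, Anapc11, the subunit that binds the conjugating enzyme. Anapc11 read 968, 548 and 945 in overexpressing cells, 468, 468 and 511 in knockdown cells and 499, 428 and 429 in wildtype cells. The difference was 0.80 ± 0.19 (SE, adjusted p = 0.0248) over wildtype and 0.70 ± 0.19 (adjusted p = 0.0493) over knockdown, and the call against wildtype was kept in 12 of 17 alternatives and lost without overexpressing array A or C, wildtype array B or C, or the mean-variance trend. The call against knockdown was kept in 5 of 17, among them 1 of the 9 that leave out an array (without overexpressing array B), with adjusted p of 0.00491 to 0.176. Anapc2, the cullin subunit, differed by -0.24 ± 0.09 (adjusted p = 0.123) and Anapc7, a repeat subunit, by -0.27 ± 0.10 (adjusted p = 0.123) in overexpressing over wildtype cells. Anapc15 differed by 0.60 ± 0.19 (adjusted p = 0.0727) and Anapc4, a platform subunit, by -0.09 (adjusted p = 0.643). Cdc27, a repeat subunit, gave 1.26 ± 0.37 in overexpressing over knockdown cells (adjusted p = 0.0669). The median of the 9 was 0.11 in overexpressing over wildtype cells.

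Of 10 measured genes of the spindle checkpoint and its regulators, 5 rose in overexpressing over wildtype cells and none fell, with a median of 0.94. Trip13, the enzyme that remodels the checkpoint protein MAD2, read 1586, 2255 and 1455 in overexpressing cells, 843, 801 and 654 in knockdown cells and 244, 350.4 and 666 in wildtype cells. Its difference was 2.12 ± 0.29 (SE, adjusted p = 0.00183) over wildtype and 1.17 (adjusted p = 0.0366) over knockdown, where the call was kept in 8 of 17 alternatives and lost without any 1 of the overexpressing or knockdown arrays, without wildtype array B, with the replicate block and without the trend. The checkpoint kinase gene Bub1 rose by 1.38 ± 0.24 (adjusted p = 0.00591), with a second probe set at 0.36 that was not called, and Mad2l1, whose product binds CDC20, rose by 1.10 ± 0.22 (adjusted p = 0.0112). Bub1b at 1.18 ± 0.29 (adjusted p = 0.0273) and Mad1l1 at 1.64 ± 0.46 (adjusted p = 0.0491) complete the 5, and over the 17 alternatives Bub1b was called in 11 and Mad1l1 in 5. The count was 3 without overexpressing array A or B or without wildtype array A or B.

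Of 20 measured substrates of the complex, 15 rose in overexpressing over wildtype cells, none fell, and all 20 differences were above 0, with a median of 0.87. Cdc25a, a phosphatase that activates cyclin-dependent kinases, read 1321, 1189 and 1338 in overexpressing cells, 708, 753 and 691 in knockdown cells and 741, 736 and 763 in wildtype cells. It rose by 0.77 ± 0.09 (SE, adjusted p = 0.000815) over wildtype and by 0.82 ± 0.09 (adjusted p = 0.000747) over knockdown, and knockdown over wildtype was -0.06 ± 0.09 (adjusted p = 0.867). Id2, an inhibitor of basic helix-loop-helix factors, read 609.6, 612 and 737 in overexpressing cells, 124, 40.4 and 151 in knockdown cells and 116, 110.0 and 176 in wildtype cells. Its difference was 2.18 ± 0.35 (adjusted p = 0.00398) over wildtype and 2.60 ± 0.35 (adjusted p = 0.00248) over knockdown.

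The ribonucleotide reductase subunit gene Rrm2 rose by 2.19 ± 0.29 (SE, adjusted p = 0.00157) and the replication licensing gene Cdc6 by 2.24 ± 0.34 (adjusted p = 0.00289) over wildtype. Among spindle genes, the kinase gene Aurka rose by 1.08 ± 0.14 (adjusted p = 0.00164) and Tpx2, its activator, by 0.94 ± 0.13 (adjusted p = 0.00185). A second probe set of Tpx2 gave 0.61 over wildtype, uncalled (adjusted p = 0.239). The 5 substrates without a call were Ccnb2, Nek2, Hmmr, Kif22 and Cdca3. In knockdown over wildtype cells 0 of the 20 were called and 18 were above 0, with a median of 0.45.

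Separase acts on cohesin, and of 8 measured genes of cohesin and its protectors 2 rose in overexpressing over wildtype cells. Sgo1, which shields centromeric cohesin, read 728, 715 and 590.4 in overexpressing cells, 346, 245 and 339 in knockdown cells and 125, 233 and 209 in wildtype cells, a difference of 1.79 ± 0.22 (SE, adjusted p = 0.0011) over wildtype and 1.10 ± 0.22 (adjusted p = 0.0147) over knockdown. The call against knockdown was lost without overexpressing array A or B or knockdown array B. Stag1, a cohesin subunit, rose by 0.79 ± 0.17 (adjusted p = 0.0173). Its call was lost without overexpressing array A or B or wildtype array A, which leaves 1 of the 8. The other 3 probe sets of Stag1 gave 0.36 to 0.95 over wildtype, uncalled (adjusted p from 0.125 to 0.452). The cohesin ring gene Smc3 differed by 0.15, uncalled. In the SCF ligase, the other large ubiquitin ligase of the cell cycle, 2 of 8 measured genes rose, Ccnf by 1.51 ± 0.26 (adjusted p = 0.00568) and Cdc34 by 0.32 ± 0.08 (adjusted p = 0.0243), and the call of Cdc34 was lost without any 1 overexpressing array or without wildtype array A or B.

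Against wildtype, the knockdown cells had 0 called genes in each of these 5 lists, and without wildtype array C they had 2 substrates and 1 checkpoint gene. Their medians were 0.45 for the substrates, 0.44 for the checkpoint genes (0.23 without wildtype array A), 0.04 for the other subunits, 0.01 for cohesin and its protectors and -0.09 for the SCF ligase. In overexpressing over knockdown cells 4 of 20 substrates, 2 of 10 checkpoint genes, 2 of 8 cohesin genes, 1 of 9 other subunits and 1 of 8 SCF genes rose, and none fell. With 1 array left out these counts ran from 2 to 9 for the substrates and from 0 to 4 for the checkpoint genes, both highest without wildtype array A, and the substrate count was 7 without wildtype array C and 2 without overexpressing array B or C or knockdown array B or C. The checkpoint count was 0 without any single array other than wildtype A or C. The other 3 lists fell to 0 without overexpressing array A or, for cohesin and the SCF ligase, B or knockdown array B, among others. The SCF gene called there was the cullin gene Cul1, at 0.49 ± 0.12 (SE, adjusted p = 0.0396), and Btrc, which encodes an F-box protein, gave -0.56 ± 0.21 (adjusted p = 0.132) in overexpressing over wildtype cells. The cohesin regulator Pds5a gave 0.51 ± 0.16 (adjusted p = 0.0641) and the checkpoint gene Zwint -0.21 (adjusted p = 0.43) in overexpressing over wildtype cells.

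**Figure D4:**
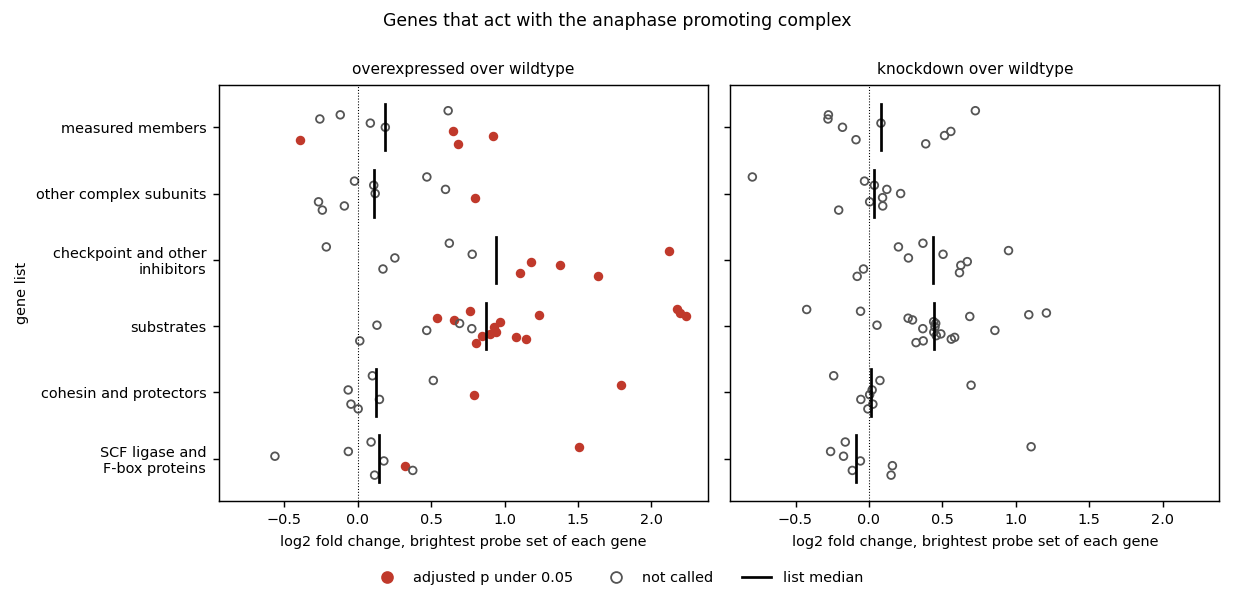
Log2 fold change of each listed gene (1 point per gene, its brightest probe set) in overexpressing over wildtype (left) and knockdown over wildtype (right) cells, grouped by list, with the list median as a bar and called genes filled. In overexpressing over wildtype cells the medians are 0.87 for the substrates and 0.94 for the checkpoint genes, against 0.11 for the other subunits.

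Factors known to act at promoters of cell cycle genes were read on all their probe sets. Mybl2, which binds such promoters with the MuvB complex, read 486, 479.6 and 481 in overexpressing cells, 278, 238 and 244 in knockdown cells and 97.9, 136 and 206 in wildtype cells on 1417656_at. It rose by 1.67 ± 0.22 (SE, adjusted p = 0.00143) over wildtype and by 0.89 (adjusted p = 0.0327) over knockdown. The call against knockdown was kept in 9 of 17 alternatives and lost without any 1 of the overexpressing or knockdown arrays, without wildtype array B and without the mean-variance trend, with adjusted p up to 0.103. A second probe set gave 0.80 (adjusted p = 0.0907). E2f1 rose by 1.05 ± 0.19 (adjusted p = 0.00641) on 1431875_a_at and had -0.16, uncalled, on its other probe set. Foxm1 was called on 1448834_at alone of its 4 probe sets, at 2.53 ± 0.29 (adjusted p = 0.000786) with a wildtype mean intensity of 17.5. The size of this dim value depends on the number added before the logarithm, with 1.56 to 3.30 over the alternatives, and the other probe sets gave 0.13 to 0.55. Lin9, a MuvB subunit, differed by 0.82 ± 0.31 (adjusted p = 0.141).

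Likeness to each coactivator was measured as the Pearson correlation of log2 values over the 9 arrays, which share 3 groups, among 10424 named probe sets above the median brightness. The 5 genes most like Cdc20 were Apex1 (0.98), Zfp281 (0.98), Bub1 (0.98), Slc25a10 (0.97) and Lig1 (0.97). Bub1 is a checkpoint kinase gene, Apex1 encodes an endonuclease of DNA repair and Lig1 encodes a DNA ligase. The 5 most like Fzr1 were Crebrf (0.98), Timp2 (0.98), Egfl7 (0.97), Klf3 (0.97) and Hbp1 (0.97). Genes chosen this way are low in the overexpressing arrays because Fzr1 is, so their differences are a description: overexpressing over wildtype gave values between -0.62 for Klf3 and -1.24 for Hbp1. Hbp1 encodes a repressor of cell cycle genes, and Timp2 an inhibitor of matrix metalloproteinases.

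Markers of other cell types were mostly below the median brightness. In overexpressing over wildtype cells 1 was called lower in each of the lists for fibroblasts (Pdgfrb), glia (Erbb3) and blood (Cd74) and none was called higher. The dim Hba-a1 of the blood list went the other way, at 1.19 ± 0.36 (SE, adjusted p = 0.064), uncalled. Every overexpressing array of Hba-a1 lay above every wildtype array, and it was called in 3 of 16 alternatives. The summed intensity of 8 fibroblast markers, 1 of them above the median brightness, was 472 to 623 in overexpressing, 707 to 862 in knockdown and 556 to 803 in wildtype arrays. For 5 Schwann cell and glia markers, 2 above the median, it was 589 to 746 in overexpressing, 768 to 936 in knockdown and 866 to 977 in wildtype arrays. For 7 blood and immune markers, where Cd74 alone was above the median, it was 652 to 776 in overexpressing, 1149.8 to 1160.0 in knockdown and 1290.2 to 1318 in wildtype arrays. Cd74 by itself averaged 373 in overexpressing, 792 in knockdown and 928 in wildtype cells. Ptprc, which defines blood cells, averaged 17.6 in overexpressing, 16.9 in knockdown and 22.7 in wildtype cells. With no detection calls, these intensities do not show which of the dim markers were above background. The part of these markers in the results above was not tested.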

How the data were processed

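Expression was measured on 9 arrays, 3 per group. The deposited values are intensity readings on a linear scale, with 1 value for each probe set and array. The software, background correction and scaling that the authors applied to these intensity values are not stated by the labels. After the lowest and highest 2% of values were removed, the array means were 500.18 to 500.2, so a global scaling had been applied. Detection calls were absent from the table. Of the probe sets, 64 controls were left out, 691 of the other 22626 had several gene symbols and 1555 had none, and only those with 1 symbol were named.

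A value of 16 was added before log2, with no further normalization. Differences were fitted with limma 3.58.1 (lmFit, and eBayes with a mean-variance trend) in R 4.3.3 over the 9 arrays, and p-values were adjusted by Benjamini-Hochberg over 22626 probe sets. The limma steps were tested on simulated data with independent noise for each probe set. That checked the steps only and does not show how often differences as small as those of the members are recovered. With 3 arrays against 3, an exact permutation test of a single value cannot go below 0.1, so none was used. The number of arrays limits the precision.

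The members and lists were chosen with earlier results of these data known, and the lists give no independent support. Named were Tcof1, all member probe sets, up to 4 genes of each list with the smallest p in overexpressing over wildtype cells and up to 2 more in overexpressing over knockdown cells, 4 regulators of mitotic promoters, and the 5 genes most like Cdc20 and Fzr1; of the named list genes, those with no call and small differences are given in the counts only. A few others (the 5 uncalled substrates, the single marker genes) were named after their values were seen. The array letters were checked by correlating the deviations from the group mean between same-lettered arrays. The correlations ran from -0.037 to 0.2 and were above 0.1 in 5 of 9 pairs. Arrays with different letters were not compared, so this check cannot decide whether the letters pair the arrays. The main fit did not pair them. Alternatives were 2 other added values, 2 normalizations, a filter on dim probe sets, no trend, array weights, the letter as a replicate block, and each array left out.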

Additional observations from a re-analysis of the deposited data

How the results depend on the processing

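Each value was recomputed under 17 alternatives, and no called difference of a member changed direction. Of 1059 recomputed member values, 1019 kept their direction and side of the threshold or, uncalled, stayed within the error, 32 lost a call, 6 gained one and 2 uncalled values moved by more than their error. Ube2c in overexpressing over wildtype cells was called in each of the 17, and the dim Cdc20 probe set 1439394_x_at in each of the 16 that kept it. In overexpressing over wildtype cells, fitting without the mean-variance trend called 1339 probe sets in place of 2169 and 2 member probe sets in place of 5, and leaving out 1 array called 1090 to 2404 probe sets and 2 to 7 members. In knockdown over wildtype cells the 3 called probe sets became 46 with the dim filter, 1 with quantile normalization, 1 without the trend and 24 with array weights, and 0 to 103 with 1 array left out, the highest without wildtype array C, where 1 member (Ube2c) was called, the range over the left-out arrays being 0 to 1. In overexpressing over knockdown cells the 1713 called probe sets became 834 without the trend and 704 to 2048 with 1 array left out. The 2 called members there became 1 with an added value of 1, with the dim filter, without the trend and with the replicate block, and 0 to 2 with 1 array left out. With the array letter as a replicate block, overexpressing over wildtype gave 2128 called probe sets and 5 members, overexpressing over knockdown gave 1600, and knockdown over wildtype gave 0. The cause of these changes was not tested, beyond fewer arrays or fewer probe sets tested. With no detection calls, the values of dim probe sets cannot be set apart from background, and 3 arrays a group limit what small differences such as those of Anapc5 can show.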
